A study of Mus musculus with 24 samples.

Results

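The comparison described here sets the IL-1b response of neurons that carry AcPb against that of neurons that carry AcP, as the difference between the 2 log2 responses on the same probe set. It uses every array whose label names AcPb alone or AcP alone, which is 12 of the 24 arrays of the series, with 3 arrays in each of 4 groups. The groups were AcPb neurons with IL-1b, AcPb neurons with a control stimulus, AcP neurons with IL-1b and AcP neurons with a control stimulus. All 4 groups were embryonic cortical neurons of Il1rap-/- mice in serum-free neuronal medium, and the IL-1b dose was 10 ng/ml for 4 h. The other arrays of the series came from the same kind of neurons made to express CD25 or AcP and AcPb together. The labels do not say by which vector or promoter the receptor chain was expressed, nor whether replicate arrays stem from different cultures or animals. The p-values therefore take in only the spread among these samples, and this may be technical.

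IL-1b is an inflammatory cytokine that binds the IL-1 receptor, which then takes up the accessory protein AcP. The intracellular TIR domains of both chains gather MyD88 and IRAK kinases, and the signal runs on to the transcription factor NF-kB and to MAP kinases, which switch on chemokines, acute phase proteins and the inhibitors that end the signal. AcPb is a splice form of Il1rap, the gene of AcP, that the nervous system makes and whose intracellular end differs. The comparison asks whether IL-1b changes the same genes when AcPb stands in the place of AcP.

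AcPb neurons had a lower IL-1b response than AcP neurons on 35 of 41267 probe sets tested (0.0848%) and a higher one on 8 (0.0194%), by limma at an adjusted p under 0.05, 43 in all (0.104%). The 35 lower probe sets cover 27 of 17183 genes (0.157%), with 1 probe set that has no single gene name. They hold the chemokines Cxcl10, Cxcl1, Ccl2, Cxcl2 and Cxcl5, the NF-kB feedback genes Nfkbia and Nfkbiz, the transcription factors Cebpd and Atf3, and the defence genes Ptx3, Tlr2 and Steap4. On all 35 of them IL-1b raised the signal in AcP neurons, by 0.65 to 7.05 log2 units with a median of 2.27. In AcPb neurons the response on the same 35 lay between -1.32 and 0.39 with a median of 0. Of the 35, 0 was called there, beside 5 of all 41267 (0.0121%). The 35 were chosen by the difference of the 2 responses, so these values are no further test of it. On 9 of them the AcPb response was exactly 0, as all AcPb arrays lay at or below 0 and were set to 0. The 8 higher probe sets had smaller differences, of 0.60 to 1.92, and cover 3 genes (0.0175%), Rad51ap1, Mtss1 and Slx1b. Of the 43, 39 differed at least 2-fold. Leaving out 1 array in turn gave 29 to 64 calls, with 2 to 19 higher ones and the most without array 3 of the AcP controls. At an unadjusted p under 0.05 there were 2675 probe sets, 1020 lower and 1655 higher, a balance that turned round to 1806 lower and 872 higher with array medians centred.

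Values are deposited probe set intensities on a linear scale from which a background had been subtracted, so that 16.4% to 18.1% of the values on an array lay at or below 0. The 12 array medians ran from 55.0 to 66.4. For the test, values below 0 were set to 0, 16 was added and log2 was taken, so a log2 change understates the change of a dim gene and, where a whole group lies at or below 0, depends on the added 16. Such a group has no spread left after that step, which makes standard errors too small there, and 10 of the 35 lower and 2 of the 8 higher probe sets have one. Standard errors follow ± for log2 values, and SDs of 3 arrays follow ± for intensities. The median SD between arrays on the log2 scale was 0.12 in stimulated AcPb neurons, 0.14 in AcPb controls, 0.14 in stimulated AcP neurons and 0.21 in AcP controls.

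**Figure D1:**
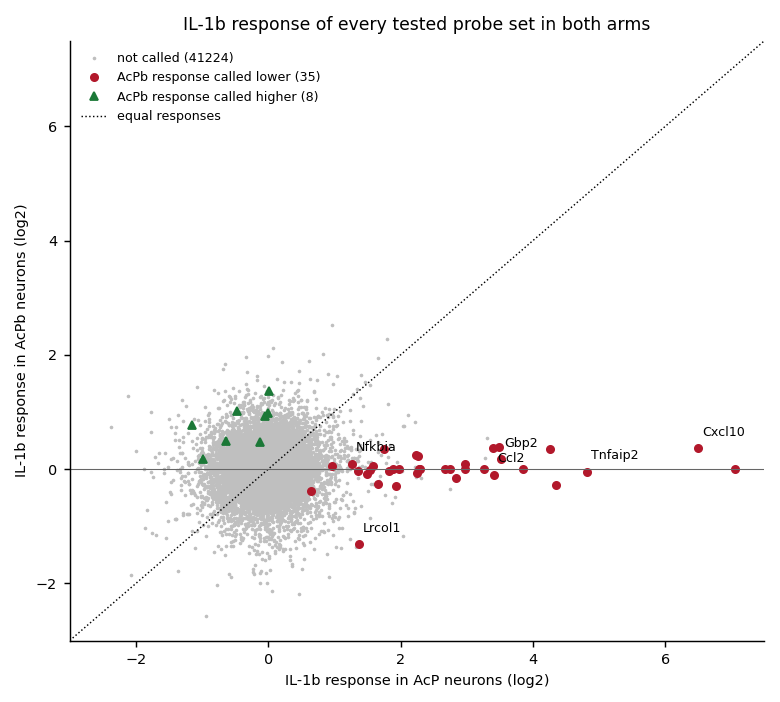
IL-1b response of each of the 41267 tested probe sets in AcP neurons (horizontal axis, log2) and AcPb neurons (vertical axis, log2), with the 35 probe sets of lower AcPb response in red, the 8 of higher response as green triangles and a dotted line of equal responses. The red points run along the horizontal line at 0 up to 7.05 on the AcP axis, and the AcPb response of all 35 stays at or below 0.39.

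Taken by the AcP response alone, which shares no array with the AcPb response, 91 probe sets rose in AcP neurons (0.221% of those tested) by a median of 1.50 log2 units. Without array 3 of the AcP controls, 265 probe sets were called in AcP neurons in either direction, against 114 with it (0.276%). The AcPb response of the 91 had a median of 0.06. It was within 0.5 log2 units of 0 on 85 of the 91, a share much like that of all probe sets, at 38529 of 41267. The upper end of the 95% interval of the AcPb response lay under 50% of the AcP response on 81 of the 91. The 91 were chosen by a high AcP response, which is also the yardstick here, so this count is no test of the difference. The difference itself was called on 35. Only 1 of the 91 was called in AcPb neurons too, the probe set 1443231_at, which has no gene name. Its signal was 104, 104 and 119 in stimulated and 11.9, 10.2 and 31.3 in unstimulated AcPb neurons, against 86.8, 101 and 91.1 in stimulated and 21.6, 24.6 and 10.8 in unstimulated AcP neurons, and its responses of 1.94 with AcPb and 1.66 with AcP differed by 0.28 ± 0.31 (adjusted p = 0.9). Of 23 probe sets that fell in AcP neurons (0.0557%), the median AcPb response was -0.11 and the difference was called on 2. Across all tested probe sets the AcPb and AcP responses had a Pearson correlation of 0.06, a description over probe sets that are no replicates.

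Among named genes Cxcl1 and Cxcl10, both chemokines, had the largest differences. Of 24 chemokines listed, 21 were tested, and 5 had a lower AcPb response on their brightest probe set, against 21 of 17183 genes in all (0.122%). The median difference of the list was 0.05, beside -0.0023 over all genes, with 9 of 21 below 0. Cxcl10, which draws activated T cells, had 19.6, 21.6 and 18.7 in AcPb neurons with IL-1b and 16.2, 16.7 and 4.76 in their controls, against 2348, 2831 and 2356 in AcP neurons with IL-1b and -2.38, 13.7 and 29.2 in theirs. The 3 stimulated AcP arrays stood apart from the other 9, and those of AcPb neurons lay within the range of the AcP controls. Its response was 0.36 ± 0.32 in AcPb and 6.50 ± 0.32 in AcP neurons, a difference of -6.14 ± 0.45 (adjusted p = 0.00043).

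Cxcl1, which draws neutrophils, was measured by 3 probe sets, and all 3 were called. Its brightest, 1457644_s_at, had 116, 165 and 213 in stimulated and 209, 265 and 140.0 in unstimulated AcPb neurons, against 3118, 4005 and 3263 in stimulated and 156, 146 and 159.8 in unstimulated AcP neurons. The AcPb response was -0.28 ± 0.23, with a 95% interval of -0.81 to 0.24, and the difference was -4.63 ± 0.33 (adjusted p = 0.0004). On 1419209_at the 9 arrays other than the stimulated AcP ones lay at or below 0, while those 3 read 1942, 2488 and 1938, so its difference of -7.05 rests on the added 16. On 1441855_x_at, with unstimulated means of 491 in AcPb and 456 in AcP neurons, the difference was -2.32 ± 0.24 (adjusted p = 0.0042).

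Ccl2, which draws monocytes, had 48.1, 64.5 and 58.1 in AcPb neurons with IL-1b and 72.3, 51.98 and 62.8 in their controls, against 761, 986 and 646 in AcP neurons with IL-1b and 71.5, 62.9 and 46.6 in theirs. Unstimulated levels overlapped between the arms, and so did AcPb neurons with and without IL-1b, at a response of -0.10 ± 0.18. The difference was -3.51 ± 0.25 (adjusted p = 0.0004). Cxcl2, a second neutrophil chemokine, had 4.12, 17.9 and 3.45 in stimulated and 15.3, 9.05 and 7.41 in unstimulated AcPb neurons, against 179, 248 and 153 in stimulated and 5.21, 18.8 and 15.7 in unstimulated AcP neurons, with a difference of -3.0 ± 0.38 (adjusted p = 0.017). Cxcl5, of the same group of ligands, had means of 5.90 ± 4.18 and 6.31 ± 2.10 in stimulated and unstimulated AcPb neurons, against 69.1 ± 7.38 and 8.18 ± 4.85 in stimulated and unstimulated AcP neurons (n = 3 each) and a difference of -1.87 ± 0.24 (adjusted p = 0.019). Both were dim, and they lost the call in 6 of 25 and 9 of 24 alternative settings. Ccl7, a further monocyte chemokine, rose by 1.72 in AcP neurons, against 0.32 in AcPb neurons, and its difference of -1.40 ± 0.39 did not pass (adjusted p = 0.49). The remaining chemokines, among them Cx3cl1 and Cxcl12, which neurons and glia make without a stimulus, had differences of -0.25 to 1.18 and 0 calls.

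**Figure D2:**
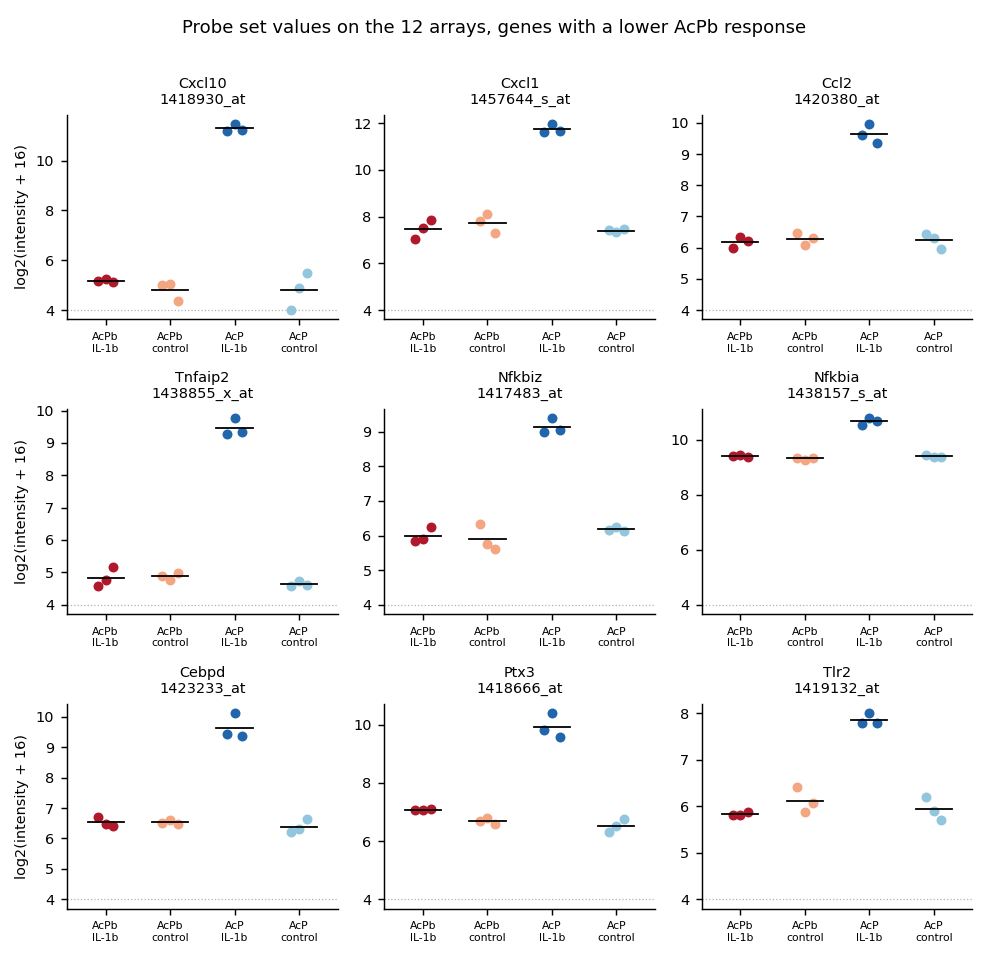
Value of 9 genes with a lower AcPb response on each of the 12 arrays, as log2 of intensity plus 16 (vertical axis), for AcPb neurons with IL-1b, AcPb controls, AcP neurons with IL-1b and AcP controls. Points are arrays, bars are group means and the dotted line marks an intensity of 0. In each panel the 3 stimulated AcP arrays lie above the other 9.

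Many chemokine and feedback genes carry binding sites for NF-kB close to their start. The starts of 3 chemokines and of Nfkbia are shown because these genes moved together and each holds such a stretch. Each is 250 bases before to 50 after the RefSeq start in GRCm38.p6, and capitals mark matches of the NF-kB consensus on either strand, with overlapping matches joined. Cxcl10 lies at chr5:92348840-92349139 on the minus strand, Cxcl1 at chr5:90890995-90891294 and Cxcl2 at chr5:90903649-90903948 on the plus strand, and Nfkbia at chr12:55492598-55492897 on the minus strand.
Cxcl10: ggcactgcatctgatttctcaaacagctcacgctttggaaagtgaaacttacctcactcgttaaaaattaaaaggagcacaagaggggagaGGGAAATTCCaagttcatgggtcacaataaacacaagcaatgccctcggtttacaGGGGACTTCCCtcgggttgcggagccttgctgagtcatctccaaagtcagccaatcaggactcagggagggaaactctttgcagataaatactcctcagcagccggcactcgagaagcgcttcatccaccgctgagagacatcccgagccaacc
Cxcl1: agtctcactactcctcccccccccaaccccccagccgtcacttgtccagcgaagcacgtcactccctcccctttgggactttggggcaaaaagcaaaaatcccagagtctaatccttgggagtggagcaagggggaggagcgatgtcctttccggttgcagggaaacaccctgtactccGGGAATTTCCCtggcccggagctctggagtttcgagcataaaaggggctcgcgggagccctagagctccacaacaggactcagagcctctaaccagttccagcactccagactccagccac
Cxcl2: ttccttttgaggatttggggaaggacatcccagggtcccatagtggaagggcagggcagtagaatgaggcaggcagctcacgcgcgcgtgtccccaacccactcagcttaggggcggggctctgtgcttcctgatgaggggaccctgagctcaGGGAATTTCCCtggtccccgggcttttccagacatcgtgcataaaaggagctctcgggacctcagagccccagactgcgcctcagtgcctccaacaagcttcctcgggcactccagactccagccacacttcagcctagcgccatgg
Nfkbia: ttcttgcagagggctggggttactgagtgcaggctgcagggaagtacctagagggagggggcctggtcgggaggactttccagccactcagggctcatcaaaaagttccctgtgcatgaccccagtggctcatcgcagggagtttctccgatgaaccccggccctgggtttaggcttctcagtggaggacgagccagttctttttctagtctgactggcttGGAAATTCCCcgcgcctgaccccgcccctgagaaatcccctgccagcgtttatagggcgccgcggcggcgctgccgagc
Cxcl10 holds 2 separate stretches, of which the first begins 159 bases before the start. In Cxcl1 the stretch begins 71 bases before the start, in Cxcl2 97 and in Nfkbia 29. Of the 27 genes with a lower AcPb response, 21 had a promoter in the table, and 10 of these (47.6%) held a match, beside 9.55% of all 27025 genes in the table. The 10 were Cxcl1, Cxcl10, Tnfaip2, Gbp2, Steap4, Ptx3, Cxcl2, Tlr2, Ier3 and Nfkbia. Of the higher genes, 2 had a promoter and 0 held a match. A match is a likeness of letters and no measured site, and no test was made of the share.

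Of 28 genes of the NF-kB pathway and its feedback, 23 were tested, 3 had a lower AcPb response on the brightest probe set (0.122% over all genes) and 0 a higher one. The median difference was -0.38, with 19 of 23 below 0, beside 50.4% of all genes. Nfkbia, the inhibitor that NF-kB switches on against itself, was the brightest of these genes. On 1438157_s_at it had 666, 684 and 653 in AcPb neurons with IL-1b and 636, 604 and 629.6 in their controls, against 1475, 1736 and 1622 in AcP neurons with IL-1b and 683, 639 and 648 in theirs. All 9 other arrays lay under the lowest of the 3 stimulated AcP arrays, and the difference was -1.17 ± 0.10 (adjusted p = 0.0017). Its further called probe sets gave -1.58 ± 0.15 (adjusted p = 0.0026), -1.55 ± 0.19 (adjusted p = 0.017) and, on the brightest, -0.91 ± 0.13 (adjusted p = 0.034), and the fifth gave -0.32 ± 0.15 (adjusted p = 0.78). The size thus varied between probe sets of 1 gene.

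Nfkbiz, a nuclear partner of NF-kB that some of its targets need, had 41.2, 44.2 and 59.3 in stimulated and 65.02, 37.7 and 32.5 in unstimulated AcPb neurons, against 499, 653 and 516 in stimulated and 55.2, 59.5 and 54.1 in unstimulated AcP neurons. Its response was 0.10 ± 0.19 with AcPb and 2.98 ± 0.19 with AcP, and the difference was -2.88 ± 0.27 (adjusted p = 0.0024). Its second probe set gave -2.05 ± 0.47 and another, dim, 0.47 ± 0.29, neither called. Tnfaip2, which NF-kB induces, had 7.69, 11.1 and 20.1 in stimulated and 13.3, 11.4 and 15.4 in unstimulated AcPb neurons, against 602, 848 and 629 in stimulated and 7.63, 10.6 and 8.30 in unstimulated AcP neurons. It was near 0 in all but the stimulated AcP neurons, and differed by -4.86 ± 0.24 (adjusted p = 2.7e-05). A second probe set, with 9 arrays below 0, gave -2.97, and another gave 0.59 ± 0.43 without a call. Uncalled members with responses in AcP neurons were Nfkbie, an inhibitor like Nfkbia, with a difference of -1.06 (adjusted p = 0.37), and the kinase gene Map3k8, with -1.20 (adjusted p = 0.2). Tnfaip3, which removes ubiquitin to end the signal, had 18.5, -8.73 and 10.9 in stimulated and 26.7, 6.48 and 65.1 in unstimulated AcPb neurons, against 95.2, 109 and 84.2 in stimulated and 41.4, 52.8 and 30.2 in unstimulated AcP neurons, and its difference of -1.77 ± 0.59 was not called (adjusted p = 0.62). The subunit genes Rela and Rel gave -0.16 and -0.20, both uncalled.

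Immediate early genes and the feedback of MAP kinases formed the longest list, with 46 members, all tested. On the brightest probe set 3 had a lower AcPb response, beside 0.122% of all genes. Of the 46 differences 33 were below 0, beside 50.4% of all genes, with a median of -0.15. Cebpd, a transcription factor of the acute phase response, had 88.5, 73.2 and 69.5 in AcPb neurons with IL-1b and 74.97, 81.8 and 73.9 in their controls, against 671, 1104 and 651 in AcP neurons with IL-1b and 57.5, 62.6 and 84.6 in theirs. Its AcPb response was 0.00 ± 0.20 and the difference -3.26 ± 0.28 (adjusted p = 0.0013). Atf3, a stress-induced transcription factor, was at or below 0 on the 9 other arrays and had 62.3, 70.96 and 54.8 in stimulated AcP neurons, and its difference of -2.29 rests on the added 16. Ier3, an early gene that restrains NF-kB and cell death, had 46.4, 58.2 and 60.9 in stimulated and 49.2, 42.9 and 40.7 in unstimulated AcPb neurons, against 254, 419 and 246 in stimulated and 54.1, 42.8 and 51.9 in unstimulated AcP neurons and differed by -2.03 ± 0.26 (adjusted p = 0.018). Gadd45b, a stress-induced regulator of MAP kinases, was called on 1449773_s_at, at -1.92 ± 0.25 (adjusted p = 0.019), and not on its brightest probe set, at -1.05 ± 0.23.

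Egr2, an early transcription factor, had the largest AcPb response among named genes that rose in AcP neurons. It had 91.2, 101 and 112 in stimulated and 43.8, 50.5 and 55.3 in unstimulated AcPb neurons, against 329.6, 427 and 325 in stimulated and 51.6, 58.2 and 87.99 in unstimulated AcP neurons. All 3 stimulated AcPb arrays lay above the AcPb controls and below the stimulated AcP arrays, but neither its AcPb response of 0.83 ± 0.17 (adjusted p = 0.28) nor the difference of -1.38 ± 0.24 (adjusted p = 0.1) was called. Fos, a subunit of AP-1, rose by 1.37 in AcP neurons, against 0.04 in AcPb neurons, with an uncalled difference of -1.33 (adjusted p = 0.11). Cebpb, a relative of Cebpd, gave -1.07 (adjusted p = 0.087), and Socs3, which curbs cytokine receptors, -1.15 (adjusted p = 0.29). Of genes that neuronal activity switches on, Egr1, Arc and Npas4 had differences of -0.16, -0.17 and 0.12, none called.

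Of 25 acute phase and innate defence genes, 18 were tested, with 2 lower on the brightest probe set and 4 on any, beside 0.122% and 0.157% of all genes. The median difference was -0.38, with 12 of 18 below 0, beside 50.4% of all genes. Tlr4, a relative of Tlr2, went the other way at 2.03 and was not called (adjusted p = 0.46). Ptx3, a secreted pentraxin that tags microbes, had 116, 117 and 120.1 in stimulated and 86.5, 93.7 and 81.1 in unstimulated AcPb neurons, against 884, 1334 and 751 in stimulated and 64.2, 75.3 and 92.4 in unstimulated AcP neurons. Its AcPb arrays with IL-1b lay above the AcPb controls, at a response of 0.38 ± 0.19 that was not called, and its difference was -3.02 ± 0.26 (adjusted p = 0.0015). Tlr2, a receptor for bacterial lipoproteins, had 39.98, 40.6 and 42.4 in stimulated and 68.9, 43.1 and 51.7 in unstimulated AcPb neurons, against 205, 242 and 206 in stimulated and 57.8, 43.3 and 36.5 in unstimulated AcP neurons and differed by -2.22 ± 0.21 (adjusted p = 0.0026). The stimulated AcPb arrays of Tlr2 were the lowest of the 4 groups on average, with a response of -0.29 ± 0.15, also uncalled. Steap4, a metalloreductase, and Cp, the copper-carrying ferroxidase ceruloplasmin, were called on probe sets that lay below 0 in all but the stimulated AcP arrays, at -3.85 and -1.88. On their brightest probe sets the differences were -1.30 and 0.15, neither called.

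Lcn2 and Icam1 had differences as large as called genes and did not pass. Lcn2, a scavenger of iron carriers, had 49.5, 53.3 and 59.2 in stimulated and 27.5, 37.5 and 53.2 in unstimulated AcPb neurons, against 544, 832 and 491 in stimulated and 15.5, 73.5 and 45.4 in unstimulated AcP neurons, and its difference was -3.12 ± 0.49 (adjusted p = 0.07). Icam1, which holds leukocytes to endothelium, had 22.2, 19.1 and 20.9 in stimulated and 9.50, 24.6 and 15.3 in unstimulated AcPb neurons, against 269, 333 and 220.0 in stimulated and 22.05, -11.5 and 26.8 in unstimulated AcP neurons, with a difference of -3.07 ± 0.47 (adjusted p = 0.062). In both genes the 3 stimulated AcP arrays lay above the other 9. With all 24 arrays in the fit, their adjusted p-values were 0.003 and 0.0018. Lcn2 was called in 11 and Icam1 in 10 of 25 alternative settings. The fit of 24 arrays also lost 7 of the 30 calls of named genes, such as Trim47 and Gbp3. Of 23 adhesion, matrix and protease genes 21 were tested and 0 was called, on any probe set, and Icam1 led them before Timp1 at -1.83 ± 0.45 (adjusted p = 0.37) and Adamts1 at -1.02 ± 0.20 (adjusted p = 0.17).

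Interferon-inducible genes gave 2 lower AcPb responses among 26 tested on the brightest probe set and 3 on any, beside 0.122% and 0.157% of all genes. All 3 were guanylate-binding proteins, the large GTPases that attack microbes inside cells. Gbp2 had 11.2, 22.3 and 9.12 in stimulated and 10.2, -3.09 and 14.3 in unstimulated AcPb neurons, against 335, 416 and 291 in stimulated and 1.35, 7.80 and -14.7 in unstimulated AcP neurons. The difference was -3.91 ± 0.37 (adjusted p = 0.0024), and a second probe set gave -3.34 ± 0.32 (adjusted p = 0.0024). Gbp7, which was not on the list, had 90.1, 82.4 and 86.8 in stimulated and 93.3, 82.9 and 74.03 in unstimulated AcPb neurons, against 191, 241 and 196 in stimulated and 53.4, 59.1 and 64.2 in unstimulated AcP neurons and differed by -1.54 ± 0.15 (adjusted p = 0.0026). Gbp3 gave -1.41 ± 0.20 (adjusted p = 0.039) and lost the call in 16 of 25 alternative settings, and Gbp6 was called only on a probe set below 0 outside the stimulated AcP arrays. These genes resemble each other in sequence, so probes of one may read another. Irf1, a transcription factor upstream of them, had means of 169.8 in stimulated and 141 in unstimulated AcPb neurons, against 294 in stimulated and 83.7 in unstimulated AcP neurons, and its difference of -1.35 ± 0.43 was not called (adjusted p = 0.58). The classical interferon targets Ifit1, Ifit3, Rsad2 and Usp18 had differences of 0.03 to 0.23, and none was called.

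**Figure D3:**
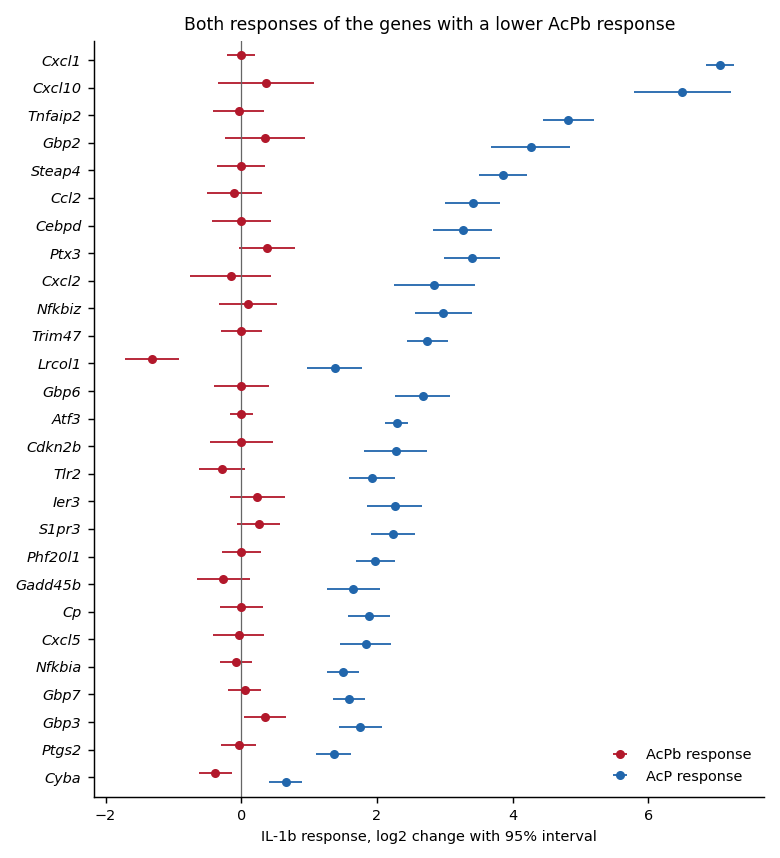
IL-1b response (horizontal axis, log2 change with 95% interval) of the 27 genes with a lower AcPb response, each by its called probe set of largest difference, for AcPb neurons in red and AcP neurons in blue. The AcPb intervals lie below the AcP intervals for each gene, which follows from choosing the genes by this difference. The AcPb point lies apart from 0 by over 1 only for Lrcol1, at -1.32. For Cxcl1, Steap4, Trim47, Gbp6, Atf3, Cdkn2b, Phf20l1 and Cp all AcPb arrays lay at or below 0. Their AcPb point is at 0 because such values were set to 0, and their intervals are too narrow.

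Genes outside the lists were named by the size of their difference. S1pr3, a receptor for sphingosine 1-phosphate, had 594, 500.1 and 477 in stimulated and 483, 448 and 379.8 in unstimulated AcPb neurons, against 1220.2, 1560.3 and 1139 in stimulated and 272, 232 and 285 in unstimulated AcP neurons. Its unstimulated level was already higher with AcPb than with AcP on every array, by 0.70 (adjusted p = 0.17), and the stimulated AcP arrays still stood highest, for a difference of -1.98 ± 0.20 (adjusted p = 0.0039). Its other probe sets gave -1.61 ± 0.27 and -2.37 ± 0.44, uncalled. The probe set 1450173_at, without a single gene name, had 33.9, 39.04 and 32.3 in stimulated and 20.6, 27.8 and 20.6 in unstimulated AcPb neurons, against 159.7, 229 and 173 in stimulated and 6.03, -10.3 and 0.32 in unstimulated AcP neurons and differed by -3.10 ± 0.22 (adjusted p = 0.0004). Ptgs2, the inducible cyclooxygenase of prostaglandin synthesis, was called on 1417262_at, at -1.40 ± 0.16 (adjusted p = 0.011), where the stimulated AcP arrays read 26.8, 33.9 and 19.4 and the others at most 2.04, and not on its brighter probe set, at -0.72 ± 0.56.

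Trim47, of the tripartite motif family, Cdkn2b, an inhibitor of cyclin-dependent kinases, and Phf20l1, a reader of methylated lysine, were above 0 in stimulated AcP neurons and mostly below it elsewhere. Their differences of -2.74, -2.27 and -1.97 rest on the added 16, and the brightest Phf20l1 probe set gave 0.20. Lrcol1 had the lowest AcPb response of the 35 probe sets, with -11.7, -4.61 and -3.63 in stimulated and 12, 32.4 and 30.9 in unstimulated AcPb neurons, against 30.7, 22.01 and 24.2 in stimulated and -34.1, -7.98 and -11.3 in unstimulated AcP neurons. It was dim in every group, and its AcPb response of -1.32 ± 0.18 was not called (adjusted p = 0.083). Cyba, a subunit of the NADPH oxidase, had 70.6, 64.5 and 86.1 in stimulated and 89.7, 114 and 98.1 in unstimulated AcPb neurons, against 76.8, 87.4 and 87.8 in stimulated and 46.5, 47.2 and 48.96 in unstimulated AcP neurons. Its stimulated levels overlapped between the arms, and its difference of -1.03 ± 0.15 (adjusted p = 0.047) came with an unstimulated level that was higher with AcPb by 0.87 (adjusted p = 0.033), the only such call among the 35.

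Of the 8 higher probe sets 3 bear a gene name, and their AcPb responses were 0.94 at most. Rad51ap1, which assists DNA repair by recombination, had 216, 244 and 198 in AcPb neurons with IL-1b and 103, 116 and 101 in their controls, against 104, 89.8 and 104 in AcP neurons with IL-1b and 109.6, 92.8 and 107 in theirs. The stimulated AcPb arrays were the highest, at a response of 0.94 ± 0.10 (adjusted p = 0.034), and the difference was 0.98 ± 0.14 (adjusted p = 0.042). Its other 3 probe sets gave -0.02 to 0.26 without a call. Slx1b, a subunit of a DNA repair nuclease, had 133, 123 and 131 in stimulated and 84.98, 88.3 and 91.9 in unstimulated AcPb neurons, against 86.3, 84.3 and 86.6 in stimulated and 93.4, 94.3 and 97.2 in unstimulated AcP neurons and a difference of 0.60 ± 0.09 (adjusted p = 0.04), with its AcPb response of 0.47 uncalled.

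Mtss1, which bends membranes through actin, was called on a dim probe set with 42.9, 52.4 and 41.2 in stimulated and 36.6, 39.2 and 38.1 in unstimulated AcPb neurons, against 16.6, 17.5 and 20.7 in stimulated and 54.8, 60.8 and 40.8 in unstimulated AcP neurons. There its AcP response was -0.98 ± 0.12 (adjusted p = 0.0069) and the difference was 1.17 ± 0.16 (adjusted p = 0.039), while its brightest probe set gave 0.10 ± 0.10. These calls were the least stable, with Rad51ap1 called in 6 of 25 alternatives, Slx1b in 7 of 25 and Mtss1 in 7 of 23. The remaining 5 probe sets, without a single gene name, had group means of 27.1 at most. On 1446996_at and 1431860_at only the stimulated AcPb arrays lay clearly above 0, at 26.9, 22.5 and 25.9 and 16.3, 19.1 and 11.5.

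**Figure D4:**
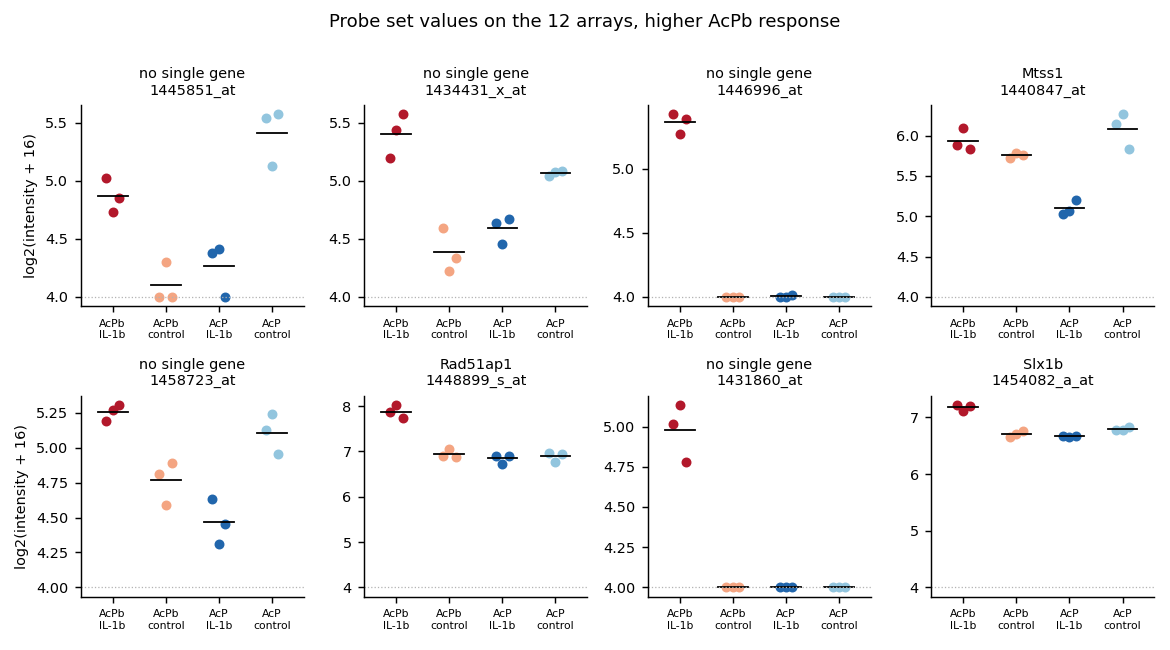
Value on each of the 12 arrays of the 8 probe sets with a higher AcPb response, as log2 of intensity plus 16 (vertical axis), for AcPb neurons with IL-1b, AcPb controls, AcP neurons with IL-1b and AcP controls. Points are arrays, bars are group means and the dotted line marks an intensity of 0. Rad51ap1 stands highest in stimulated AcPb neurons, at a mean intensity of 219.5, and Mtss1 lowest in stimulated AcP neurons, at 18.2.

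In AcPb neurons alone, 5 probe sets were called after IL-1b (0.0121%), with 3221 at an unadjusted p under 0.05. They were 1419885_at, lower (0.00242%), and 4 higher (0.00969%), which were Rad51ap1, 1431860_at, 1443231_at and 1446996_at. The count was 0 over probe sets with no group wholly at or below 0, 1 with the replicate block, 31 with array weights and 2 to 18 without 1 array, with 18 each without array 1 of the stimulated AcPb neurons and array 2 of their controls. With all 24 arrays in the fit it was 4, of which 0 were among the 5. Peak1, a pseudokinase gene, had 82.05, 46.1 and 77.7 in stimulated and 184, 175 and 161 in unstimulated AcPb neurons, against 224, 263 and 223 in stimulated and 239, 190.2 and 207 in unstimulated AcP neurons. Its AcPb response was -1.19 ± 0.16 (adjusted p = 0.083), and its difference of -1.34 ± 0.23 was not called either (adjusted p = 0.11). The difference was called in only 2 of 25 alternative settings, among them the fit of all 24 arrays (adjusted p = 0.0062).

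Before IL-1b, AcPb and AcP neurons differed on 16 probe sets (0.0388%), 6 higher (0.0145%) and 10 lower (0.0242%) with AcPb, and on 69 without array 3 of the AcP controls. The count was 0 without array 3 of the stimulated AcPb neurons or array 1 of the stimulated AcP neurons, and 0 with a generalised log, array weights or the replicate block, so each call was lost there (limma, 3324 at an unadjusted p under 0.05 with all arrays). Among the 16 were lower Scd1 and Hsd17b7, of fatty acid and sterol synthesis, and higher Loxl1 and Tgfbi, of the extracellular matrix. Of the 35 lower probe sets, unstimulated levels differed by a median of 0.06 between the arms, from -0.28 to 1.32. On some of them both control groups lay at or below 0, which sets the difference to 0. The control arrays of the 2 arms lay wholly apart on 8 of the 35, beside 4784 of all 41267. Lrcol1 at 1.32 and 1450173_at at 1.12 were the highest, both uncalled (limma, adjusted p = 0.057). The receptor genes themselves had no called difference. Il1rap, the gene of AcP and AcPb, had 118, 100.2 and 115 in stimulated and 132, 126 and 121 in unstimulated AcPb neurons, against 141, 117 and 143 in stimulated and 137, 138 and 132 in unstimulated AcP neurons on its brightest probe set, with a difference of -0.14 ± 0.12 (adjusted p = 0.89), and its other 4 probe sets gave -0.11 to 0.29 without a call. Introduced chains need not carry the stretch that a probe set reads, so this checks no label. Il1r1, the signalling receptor, had group means between -4.84 and -0.31. Of 20 tested members of the IL-1 receptor family and its first signalling steps, MyD88, IRAK and TRAF6 included, 0 was called, with differences of -0.79 to 0.81.

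**Figure D5:**
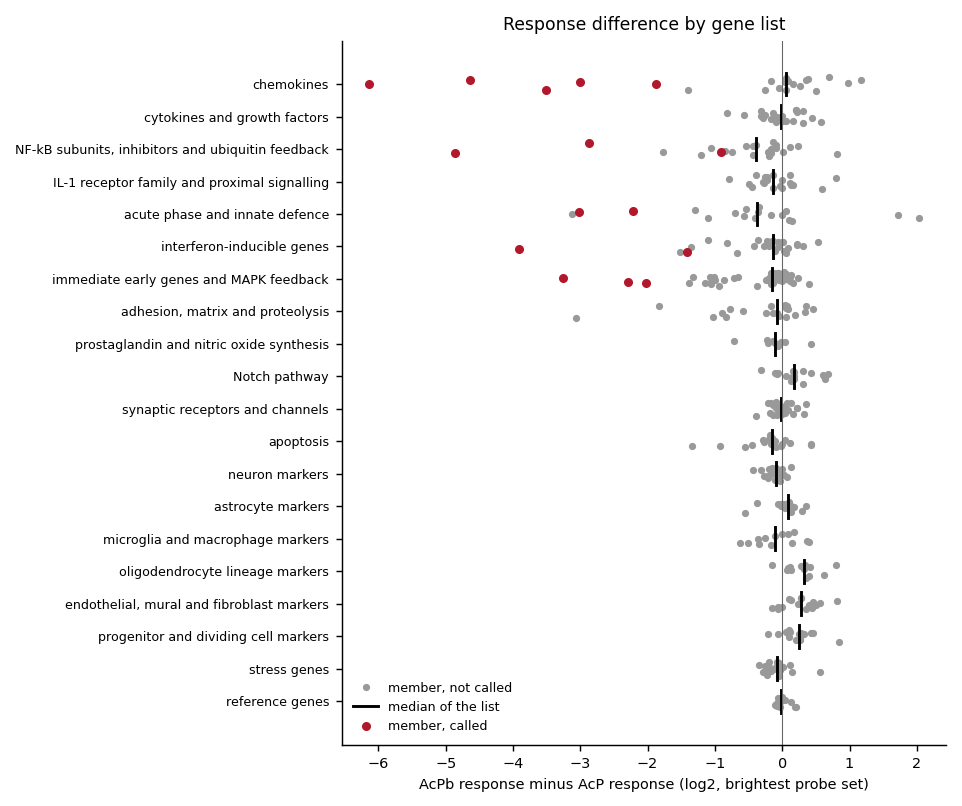
AcPb response minus AcP response (horizontal axis, log2) of each tested member of 20 gene lists on its brightest probe set, with called members in red and the list median as a black bar. Called members stand only in the chemokine, NF-kB, acute phase, interferon and immediate early lists, and list medians run from -0.38 to 0.32.

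The other lists held no called member on the brightest probe set. Cytokines and growth factors had differences of -0.82 to 0.57 over 22 tested, with Il6, an inflammatory cytokine, at -0.82 ± 0.27 and means of 1.74 in stimulated and 2.30 in unstimulated AcPb neurons, against 16.4 in stimulated and 2.06 in unstimulated AcP neurons. Notch pathway genes had a median of 0.17, led among the brighter by Notch2, a receptor, which had 546, 529 and 515 in stimulated and 548, 519.6 and 560.0 in unstimulated AcPb neurons, against 324, 298 and 343 in stimulated and 499, 556 and 510.3 in unstimulated AcP neurons. Its response was -0.03 ± 0.07 in AcPb neurons and -0.67 ± 0.07 in AcP neurons (adjusted p = 0.0045 for AcP), with a difference of 0.64 ± 0.11 (adjusted p = 0.088). Apoptosis genes had a median of -0.15, with the caspase inhibitor Cflar at -1.34 ± 0.38 (adjusted p = 0.5). Synaptic receptors and channels ran from -0.39 to 0.35, stress genes from -0.34 to 0.56 and reference genes from -0.11 to 0.21. Prostaglandin and nitric oxide genes, 9 tested, held the Ptgs2 call above as their only one on any probe set.

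Neuron markers were well expressed, with all 25 tested above the 60th percentile of every array. Astrocyte markers were present as well, with 14 of 15 there in each group, and bulk arrays cannot tell fewer cells of a type from less RNA per cell. Summed neuron marker intensity was 71891 to 72396 in stimulated and 74307 to 75882 in unstimulated AcPb neurons, against 76861 to 80685 in stimulated and 74098 to 83265 in unstimulated AcP neurons. The differences in response of neuron markers had a median of -0.09, with 22 of 25 below 0, beside 50.4% of all genes, and none was called. With quantile scaling 19 of the 25 were below 0, and with array medians centred 24, where the median of all genes was -0.10. Astrocyte sums overlapped, at 33006 to 34902 and 33437 to 36760 in AcPb neurons with and without IL-1b, against 33075 to 35446 and 34029 to 36968 in AcP neurons with and without it. Microglia markers, of which 13 of 17 on the array were tested, stood above the 60th percentile for 2 or 3 members in each group. Their sums were 972 to 1352 and 983 to 1433 in AcPb neurons with and without IL-1b, against 899 to 1205 and 787 to 1073 in AcP neurons with and without it. Aif1 and Cx3cr1, 2 of the 13, had means from -20.3 to 3.66, while Laptm5 lay above the 60th percentile on at least 3 of the 12 arrays. Most of the 13 thus did not reach that percentile on all arrays of a group, while only 1 or 2 in each group had a mean at or below 0.

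Progenitor and dividing cell markers were higher in the AcPb arm, with sums of 12128 to 12304 and 11052 to 11848 with and without IL-1b, against 9204 to 9834 and 8879 to 9646 in the AcP arm. Endothelial, mural and fibroblast markers had sums of 2241 to 2975 and 1868 to 2190 in AcPb neurons, against 1592 to 1867 and 1515 to 1855 in AcP neurons. Oligodendrocyte lineage markers had 6929 to 8407 and 6954 to 8086 in AcPb neurons, against 6061 to 6867 and 6831 to 7624 in AcP neurons. Median differences in response were 0.25, 0.28 and 0.32 in these 3 lists, and 0 of their members was called. Their part in the lower AcPb responses was not tested.

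The stimulated AcP arrays did not read alike. Array 2 of that group was the highest of its 3 on 29 of the 35 lower probe sets, such as Cxcl10 and Cebpd. Without it 36 probe sets were called, 32 lower and 4 higher, and 32 of the 36 were among the 43.

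In the arms outside the test, the 35 probe sets responded in neurons with AcP and AcPb together by a median of 1.67 log2 units, from -0.02 to 6.19, with 34 above 0. In CD25 neurons they gave a median of -0.10, from -0.89 to 0.84. These responses did not all start from a like level. Unstimulated Cxcl10 had a mean of 199 in CD25 neurons, against 12.5 in AcPb and 13.5 in AcP neurons. For Ccl2 the levels were close, at 65.9, against 62.3 and 60.3. Beside AcPb responses of 0.36 for Cxcl10, -0.10 for Ccl2 and 0.10 for Nfkbiz, neurons with both chains gave 5.22, 3.24 and 2.60, and CD25 neurons -0.04, 0.06 and -0.31. These values are given with no test.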

How the data were processed

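RNA of embryonic cortical neurons was measured on 3'-probe arrays, after column extraction and Eberwine biotin labelling, per the labels. The authors deposited 1 intensity for each probe set and array, on a linear scale with background subtracted, since values ran from -1617.3 to 13068.67. The summarisation of probes and the scaling are steps not given in the sources used here. Of 45077 probe sets, 40 controls were left out, as were 3770 at or below 0 on all 12 arrays, which left 41267. Gene names came from the platform annotation, with 34945 probe sets of 1 symbol, 932 of several and 9160 of none, and only the first were named. Of these, 34741 matched a mouse gene of RefSeq GRCm38.p6 by Entrez number, and 0 symbols changed.

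Values below 0 were set to 0, 16 was added and log2 was taken. limma 3.58.1 in R 4.3.3 (lmFit and eBayes) fitted 4 group means on the 12 arrays, with 8 residual degrees of freedom. The AcPb response minus the AcP response was tested by a contrast of the 4 means, 2-sided, with Benjamini-Hochberg adjustment over all 41267 probe sets and a threshold of 0.05. The responses in each arm and the unstimulated arms were tested in the same fit, which was tested on simulated data first. The number of arrays limits the precision.

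A gene's brightest probe set is that with the highest mean over the 12 arrays. Named were the 24 genes of largest negative and 8 of largest positive called difference, up to 4 members of each of 20 lists by size of difference, and Il1rap, Il1r1, Il1r2, Il1rn, Il2ra, Nfkbia and Peak1. Genes named beyond this rule were chosen after their values were seen. The members and lists were chosen with earlier results of these data known. The lists hold 459 members, of which 417 are on the array and 399 were tested. Alternatives changed the added constant, floor, scaling, filter, arrays, weights and replicate block, or left out each array in turn. A further one, without probe sets that have a group at or below 0 on all 3 arrays, was chosen after seeing the data. The replicate numbers showed little pairing within an arm, where deviations of same-numbered arrays in the 2 groups correlated at -0.08 to 0.09. The same-numbered array was still the best match for arrays 1 and 2 of the AcPb arm. Pairing across the arms was not examined, so it is not excluded.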

Additional observations from a re-analysis of the deposited data

Results flagged for a closer look

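The effect of IL-1b differed between AcPb and AcP neurons by the test of the difference itself, limma's interaction contrast, on 35 probe sets with a lower and 8 with a higher AcPb response. On the 35 the median response was 0 in AcPb and 2.27 in AcP neurons. On the 8 it was 0.85 in AcPb and -0.30 in AcP neurons. Both sets were chosen by the difference, so these medians are no further test of it.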

How the results depend on the processing

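Of 30 called probe sets of named genes, 15 were called in all of the up to 25 alternatives that gave them a value, and 0 changed direction. The 35 lower calls ranged from 24 to 45. The 43 calls became 27 (24 lower, 3 higher) over the 37477 probe sets with no group at or below 0 on all 3 arrays, where 10 of the 35 lower and 2 of the 8 higher probe sets had no value and others lost the call, and 29 to 64 without 1 array, with the most, 45 lower and 19 higher, without AcP control array 3. The 8 higher calls became 2 with a generalised log, 5 with medians centred, 5 with the filter at the 40th and 4 at the 60th percentile, 4 with 1 probe set a gene, 4 with 24 arrays, 4 with the replicate block, and 2 to 19 without 1 array. With the replicate block the difference gave 32 calls (28 lower, 4 higher), of which 29 were among the 43. Whether the numbers pair the arrays is not known.

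The 114 calls of the AcP response became 69 with 1 probe set a gene, 65 with array weights, 71 with the replicate block and 74 to 265 without 1 array, the most without AcP control array 3 and the fewest without stimulated AcP array 2. The 5 calls of the AcPb response became 20 with a floor of 32, 3 with quantile scaling, 3 and 8 with the filter at the 40th and 60th percentile, 3 with 1 probe set a gene, 31 with weights, 9 with an intensity trend, 1 with the replicate block, 2 to 18 without 1 array, and 0 without floored groups (limma, 2908 at an unadjusted p under 0.05). The 16 unstimulated calls became 34 with 64 added, 41 with a floor of 32, 3 with medians centred, 33 and 81 with the filter at the 40th and 60th percentile, 32 with 1 probe set a gene, 96 with 24 arrays, 46 with a trend and 0 to 69 without 1 array, again the most without AcP control array 3. They became 0 with a generalised log, weights or the replicate block (limma, 3317, 2281 and 3240 at an unadjusted p under 0.05). The cause of these changes was not tested.

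Centring on medians moved the median difference of all genes to -0.10 and turned the medians of the chemokine and astrocyte lists to -0.05 and -0.02, and quantile scaling turned those of the reference and synaptic lists to 0.01 and 0.04. Uncalled differences that changed sign without 1 array were those of Ptges, at -0.47 to 0.11, Il2ra, at -0.44 to 0.085, and Il1r1, at -0.026 to 0.19, where the turned values came without AcP control arrays 1, 3 and 2 in that order. Signals at or below 0 limit what can be said of dim genes.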
